A study of Mus musculus with 7 samples.

Results

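Sugct and 5 other enzymes of lysine and glutarate breakdown (Aass, Aldh7a1, Aadat, Dhtkd1 and Gcdh) were followed in RNA from mouse kidney. Sugct was chosen by its measured level, which was lower in both diabetic groups than in control replicates 8 and 9, and the others were chosen as enzymes of the same pathway. The values that chose Sugct are therefore given as a description, with no test. All 6 genes were among the 17537 genes listed, and all 6 passed the filter of at least 1 CPM (reads scaled to a common library total and normalised between libraries) in at least 2 libraries, which left 13976 genes to test.

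Renal tissue of C57BL/6 mice was sequenced in 7 libraries. The 3 non-diabetic control libraries (C, replicates 2, 8 and 9) came from mice given no streptozotocin. The vehicle, sodium citrate, was injected in its place, as the methods of the study state. The 2 DM-22 libraries came from mice made diabetic with streptozotocin, a toxin of insulin-producing beta cells, injected at 60 mg/kg on 5 days and left without glucose lowering up to 22 weeks. The 2 DM+SGLT2i libraries came from mice given the same streptozotocin and then, after 16 weeks, dapagliflozin for 6 weeks, dissolved in their drinking water at 25 mg/kg. Dapagliflozin inhibits SGLT2, the transporter that recovers glucose from the urine. The mice carried no engineered allele and were 8 to 10 weeks old at the start according to the labels, which give male mice, whereas the study's methods name both sexes. Streptozotocin can also act on the kidney itself, and both diabetic groups were given it, so diabetes and a direct action of streptozotocin cannot be told apart. Nothing in the labels says how the libraries relate to single animals beyond their numbers, so the p-values measure the spread between these libraries.

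Each library held between 46456125 and 56541594 reads on listed genes, and 1 read was worth 0.0180 to 0.0231 CPM, far below the level of every member in every library. The library labelled control replicate 2 stood apart from its group. Across genes, its log2 values correlated with r = 0.966 and 0.963 with control replicates 8 and 9, which correlated with each other with r = 0.994, and with r = 0.992 with DM+SGLT2i replicate 2. Its summed level of 13 proximal tubule markers was 11711 CPM, against 26107 and 23447 CPM in control replicates 8 and 9. Log2 fold changes against controls are therefore given with all 3 controls, as designed, and again with control replicates 8 and 9. The DM-22 libraries were split as well, and correlated with r = 0.975 with each other. DM-22 replicate 1 reached r = 0.9855 with control replicate 2, and DM-22 replicate 2 reached r = 0.9848 with control replicate 8.

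Lysine is broken down mainly in mitochondria of liver and kidney. Aass joins lysine to 2-oxoglutarate and splits the resulting saccharopine, Aldh7a1 oxidises the semialdehyde to 2-aminoadipate, and Aadat transaminates this to 2-oxoadipate, which also arises from tryptophan. Dhtkd1, the first subunit of the 2-oxoadipate dehydrogenase complex, yields glutaryl-CoA, and Gcdh oxidises glutaryl-CoA to crotonyl-CoA. Sugct moves coenzyme A from succinyl-CoA onto free glutarate and so returns glutarate to the pathway. Loss of GCDH causes glutaric aciduria type I in humans, and loss of SUGCT causes glutaric aciduria type III. In the kidney these enzymes are chiefly known from the proximal tubule.

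Sugct (ENSMUSG00000055137) lies on the minus strand of chromosome 13 of GRCm38, from 16857472 to 17695553, a gene of 838.1 kb with 3429 exonic bases. It stood at 138 and 146.5 CPM in control replicates 8 and 9, from 6541 and 6854 reads, and at 31.7 CPM in control replicate 2, from 1728 reads. DM-22 mice had 38.5 and 40.5 CPM and DM+SGLT2i mice had 54.3 and 49.1 CPM. Control replicates 8 and 9 were thus high, the 4 diabetic libraries were low and close to their group partners, and control replicate 2 was the lowest library of all. Control replicates 8 and 9 averaged 142 ± 6.19 CPM (SD, n = 2). The DM-22 libraries averaged 39.5 ± 1.41 CPM (SD, n = 2), and the DM+SGLT2i libraries 51.7 ± 3.65 CPM (SD, n = 2). The means of the diabetic groups were 27.8% and 36.4% of that of control replicates 8 and 9. With all 3 controls the control mean was 105 ± 63.9 CPM (SD, n = 3), and both diabetic groups lay within the control range.

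The 250 bases before the RefSeq start of Sugct were rich in G and C (74.0%, against a median of 52.4% over 32851 mouse promoter windows of the same length), and 4.91% of all windows were as rich. The window is shown together with those of Dhtkd1, the member whose profile over the libraries was closest to Sugct, and Aadat, the only member whose lowest library was DM+SGLT2i replicate 1. Sequences are those of RefSeq on GRCm38.p6, read 5′ to 3′ along the gene, and 5 of the 6 members matched an entry. In GENCODE, 4 of the 5 Sugct transcripts start within 50 bases of the RefSeq start and 1 starts 788 bases upstream of it, so that the window lies within the gene as annotated. The RefSeq start of Aadat lies 192 bases inside its annotated 5′ end. Capitals mark exact matches, on either strand, to CAAAGTCCA (HNF4A), GTTAAT (HNF1), AGGTCA (nuclear receptors), CACGTG (the E-box), GGGCGG (the GC box), CCAAT (NF-Y) and TATAAA (the TATA box).
Sugct, chr13:17694766-17695015, minus strand: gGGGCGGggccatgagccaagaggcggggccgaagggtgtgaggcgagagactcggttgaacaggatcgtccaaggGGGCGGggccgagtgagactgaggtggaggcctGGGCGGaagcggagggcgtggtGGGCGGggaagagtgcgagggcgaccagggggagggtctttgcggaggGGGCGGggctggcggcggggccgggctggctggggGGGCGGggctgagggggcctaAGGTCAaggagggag
Dhtkd1, chr2:5942793-5943042, minus strand: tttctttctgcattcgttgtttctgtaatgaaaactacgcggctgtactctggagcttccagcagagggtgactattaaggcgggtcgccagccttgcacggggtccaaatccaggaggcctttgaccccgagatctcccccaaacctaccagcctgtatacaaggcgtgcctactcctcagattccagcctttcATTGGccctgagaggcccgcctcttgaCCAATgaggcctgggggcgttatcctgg
Aadat, chr8:60505874-60506123, plus strand: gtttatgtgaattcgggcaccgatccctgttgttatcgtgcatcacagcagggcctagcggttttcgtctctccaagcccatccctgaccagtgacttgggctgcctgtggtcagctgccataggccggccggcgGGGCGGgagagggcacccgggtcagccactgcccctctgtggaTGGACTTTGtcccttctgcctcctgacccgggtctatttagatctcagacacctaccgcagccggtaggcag

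The Sugct window held 6 copies of GGGCGG, and 0.886% of all windows held as many or more, and an AGGTCA between 15 and 10 bases before the start. The Dhtkd1 window held CCAAT in each direction, with the nearer match ending 24 bases before the start. The Aadat window held CAAAGTCCA on the opposite strand, 72 to 64 bases before the start, and a single GGGCGG. Over all windows, CAAAGTCCA was found in 0.384%, GTTAAT in 6.43%, AGGTCA in 14%, CACGTG in 6.02%, GGGCGG in 32.7%, CCAAT in 33.8% and TATAAA in 12.4%. No motif was shared by all 3 windows shown. Matches describe these letters only, and no binding was measured here.

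**Figure D1:**
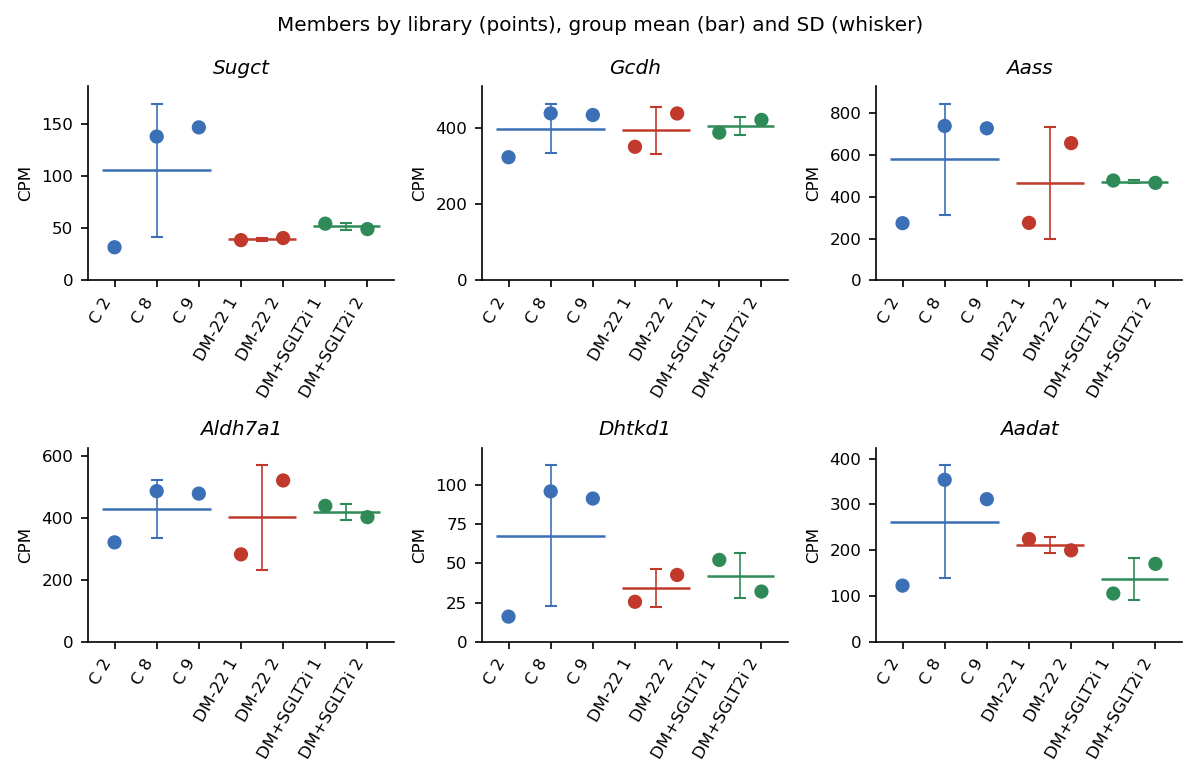
CPM of each of the 6 genes (y axis, from 0) in each of the 7 libraries (x axis, points), with the group mean (horizontal bar) and SD (whisker). Sugct and Dhtkd1 sat highest in control replicates 8 and 9 and lowest in control replicate 2, whereas Gcdh differed little between libraries.

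Dhtkd1 (ENSMUSG00000025815, chromosome 2, 5896115 to 5942792, minus strand) was the least expressed member per length and the most variable. It stood at 95.7 and 91.1 CPM in control replicates 8 and 9 and at 16.03 CPM in control replicate 2, from 875 reads. DM-22 mice had 25.5 and 42.5 CPM, and DM+SGLT2i mice had 52.1 and 32.0 CPM. As for Sugct, all diabetic libraries lay below control replicates 8 and 9 and above control replicate 2. The diabetic means were 36.4% and 45.0% of the mean of control replicates 8 and 9, and the highest library exceeded the lowest 5.97-fold, against 4.63-fold for Sugct.

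Aass, the entry enzyme (ENSMUSG00000029695, chromosome 6, 23072173 to 23132986, minus strand), stood at 274, 739 and 727 CPM in control replicates 2, 8 and 9. DM-22 mice had 275 and 656 CPM, a spread as wide as that between the controls, and DM+SGLT2i mice had 478 and 466 CPM. DM-22 replicate 1 was thus close to control replicate 2, and DM-22 replicate 2 was close to the other controls. Aldh7a1 (ENSMUSG00000053644, chromosome 18, 56509687 to 56572951, minus strand) showed the same split in DM-22 mice, at 282 and 520 CPM. Its control values were 320, 485.5 and 477.5 CPM (replicates 2, 8 and 9), and DM+SGLT2i mice had 438 and 402 CPM, so that the groups overlapped.

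Aadat (ENSMUSG00000057228, chromosome 8, 60505932 to 60545677, plus strand) stood at 123, 354 and 311 CPM in control replicates 2, 8 and 9. DM-22 mice had 224 and 200 CPM, and DM+SGLT2i mice had 106 and 170 CPM. Unlike Sugct, Aadat was lower in both DM+SGLT2i libraries than in either DM-22 library. Gcdh (ENSMUSG00000003809, chromosome 8, 84886393 to 84893921, minus strand) had the narrowest range, from 322 CPM in control replicate 2 to 437 CPM in control replicate 8, a ratio of 1.36. DM-22 mice had 350 and 437 CPM and DM+SGLT2i mice had 387 and 420 CPM, and the 3 groups overlapped.

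Levels were compared between genes as CPM per kilobase of merged exon, in control replicates 8 and 9 (mean ± SD, n = 2). Aass was highest at 192 ± 2.09, followed by Gcdh at 158 ± 1.10 and Aadat at 153 ± 13.7, which did not differ beyond their spread. Aldh7a1 followed at 92.9 ± 1.10, Sugct at 41.4 ± 1.80 and Dhtkd1 at 14.7 ± 0.511. In DM-22 mice Gcdh led at 143 ± 22.4 and Aass came next at 122 ± 70.7, within their spread. Sugct stood at 11.5 ± 0.412 and Dhtkd1 at 5.37 ± 1.91 CPM per kilobase there, and both stayed below the other members in every library.

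**Figure D2:**
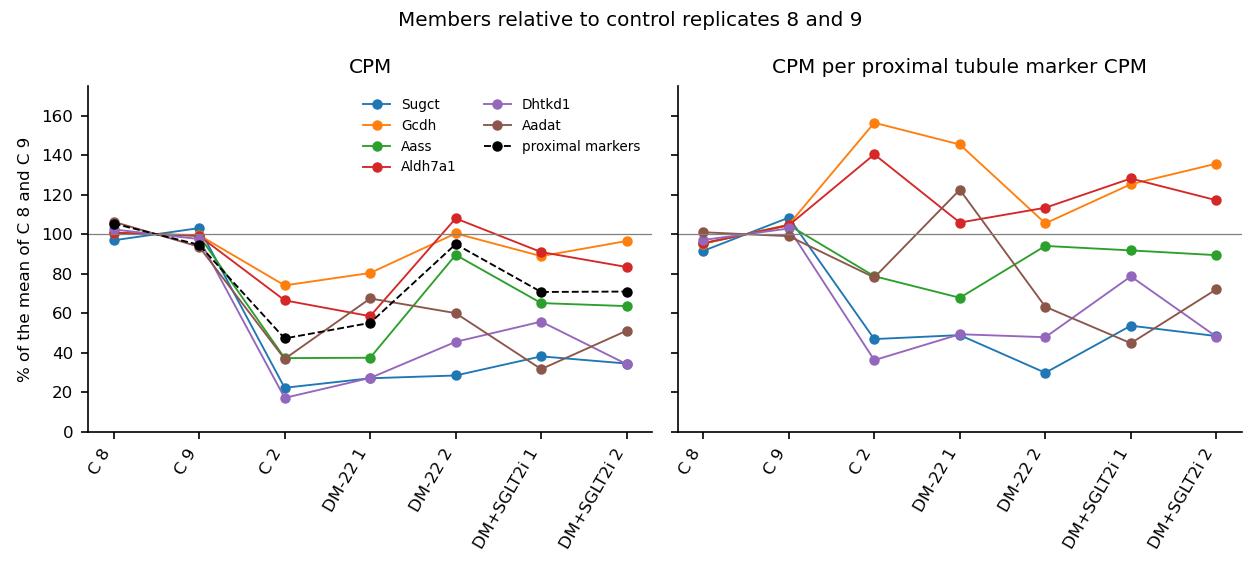
Each gene's level as a percentage of its mean in control replicates 8 and 9 (y axis) in the 7 libraries (x axis), from CPM (left, with the summed proximal tubule markers dashed) and from CPM divided by that sum (right), with lines that join the points of a gene and carry no order. In control replicate 2 and the diabetic libraries Sugct lay between 22.3% and 38.2% on the left and between 29.9% and 53.7% on the right. It was below Gcdh and Aldh7a1 in each of them, but Sugct was chosen by its low level against control replicates 8 and 9. Dhtkd1 lay below Sugct in control replicate 2 (17.2% left, 36.3% right) and just below it in DM+SGLT2i replicate 2. Aadat lay below Sugct in DM+SGLT2i replicate 1 (31.7% left, 44.9% right).

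The first question was which members differed between diabetic mice and controls. With all 3 controls, 0 of the 5 members tested (Sugct left out) passed limma's test in DM-22 mice at an adjusted p of 0.05, as did 0% of all genes, and 0 of 5 had an unadjusted p under 0.05, against 3.28% of all genes that were lower and 1.19% that were higher at that level. In DM+SGLT2i mice the counts were again 0 of 5 adjusted (0% of all genes) and 0 of 5 unadjusted (0.415% of all genes were lower and 0.665% higher). The log2 fold changes of the members tested lay between -0.65 (Dhtkd1, SE 0.78, limma adjusted p = 0.853) and -0.01 (Gcdh, SE 0.21, adjusted p = 0.992) in DM-22 mice. In DM+SGLT2i mice they lay between -0.83 (Aadat, SE 0.47, limma adjusted p = 0.9997) and 0.03 (Gcdh, SE 0.21, adjusted p = 0.9997). The sign for Gcdh in DM-22 mice turned (to 0.01) when libraries were scaled by the median of ratios, and its value stayed near 0. Sugct's own values on this log2 scale were -1.12 (SE 0.63) and -0.74 (SE 0.63).

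Against control replicates 8 and 9, 2 of 5 members in the DM-22 group were lower with an unadjusted p under 0.05, where 14.8% of all genes were lower and 10.4% higher. These were Dhtkd1 (log2 fold change -1.49, SE 0.31, limma adjusted p = 0.0938) and Aadat (-0.65, SE 0.24, limma adjusted p = 0.176). In DM+SGLT2i mice the same 2 of 5 had an unadjusted p under 0.05, where 9.14% of all genes were lower and 8.73% higher. Aadat was at -1.31 (SE 0.24, limma adjusted p = 0.101) and Dhtkd1 at -1.18 (SE 0.31, limma adjusted p = 0.163). None of the 5 members tested passed the adjusted threshold in either comparison, which 0.0143% and 0.122% of all genes did. Aass was at -0.79 (SE 0.40, limma adjusted p = 0.270) and -0.63 (adjusted p = 0.434), and Gcdh at -0.15 (SE 0.17, adjusted p = 0.589) and -0.11 (adjusted p = 0.759). Sugct stood at -1.83 (SE 0.12) and -1.45 (SE 0.12), the contrasts by which it was chosen. The comparisons share their controls, so the columns of values are not independent.

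**Figure D3:**
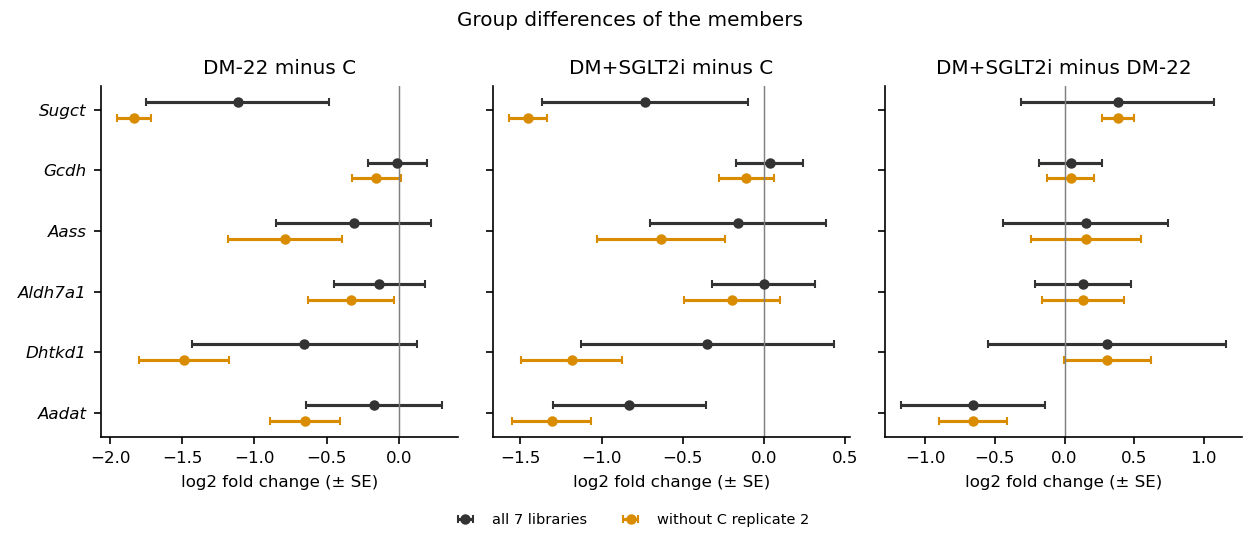
Log2 fold change (x axis, point) and its SE (bar) for each gene (y axis) in the 3 comparisons, with all 7 libraries (dark) and without control replicate 2 (orange). Dhtkd1 moved from -0.65 to -1.49 in DM-22 mice and Aadat from -0.83 to -1.31 in DM+SGLT2i mice when control replicate 2 was left out, and Gcdh stayed near 0.

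Whether libraries overlapped was counted in the same way over all genes tested. DM-22 libraries lay below all 3 controls for 0 members (9.29% of all genes) and above them for 0 (10.8%). DM+SGLT2i libraries lay below all 3 controls for 0 members (6.59%) and above them for 0 (5.67%). The 4 diabetic libraries and control replicate 2 all lay below control replicates 8 and 9 for 4 of 6 members (Sugct, Aass, Dhtkd1 and Aadat), against 20.3% of all genes, and above them for 0 (14.4%). Sugct is among these 4 by the way it was chosen. Control replicate 2 was below both other controls for all 6 members (46.4% of all genes) and below the 6 other libraries for 4 (Sugct, Gcdh, Aass and Dhtkd1, against 19.0%).

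The next question was whether glucose lowering with dapagliflozin went with a different level. Sugct was not chosen on this comparison, although the values of these same diabetic libraries served in choosing it. It was higher in both DM+SGLT2i libraries than in both DM-22 libraries (log2 difference 0.38, 95% interval -1.28 to 2.05, limma adjusted p = 0.934). Aadat lay lower in both (log2 difference -0.66, 95% interval -1.89 to 0.57, limma adjusted p = 0.881). Over all genes, 21.4% had both DM+SGLT2i libraries above DM-22 and 20.0% had both below, so 1 member in each direction is close to the background. At the adjusted threshold 0 of 6 members and 0% of all genes passed in limma, and 0 of 6 had an unadjusted p under 0.05, against 2.25% of all genes higher and 1.66% lower. When the spread was estimated without control replicate 2, Sugct's 95% interval was 0.10 to 0.67, and Sugct and Aadat both had an unadjusted p under 0.05 but an adjusted p = 0.463 in limma. In that fit 6.86% of all genes were higher and 3.89% lower at that unadjusted level, and 0% passed the adjusted threshold. With only the groups compared in the fit, Sugct's 95% interval was -0.000 to 0.763, and with the replicate number as a block it was -0.061 to 0.824. In these fits without control replicate 2, the spread of Sugct came from libraries whose values also chose it. Its intervals and p-values there are therefore a description and not independent evidence. Gcdh, Aass, Aldh7a1 and Dhtkd1 had log2 differences between 0.04 and 0.31 with adjusted p-values of 0.957 or more in limma.

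The members are enzymes of tubule cells, and the libraries differed in their content of proximal tubule transcripts. All 13 listed proximal tubule markers were detected in every library. Their summed level was 11711, 26107 and 23447 CPM in control replicates 2, 8 and 9, 13660 and 23528 CPM in DM-22 mice, and 17538 and 17589 CPM in DM+SGLT2i mice. Control replicate 2 and DM-22 replicate 1 were low, as they were for Aass and Aldh7a1. In bulk tissue, fewer cells of a type and less RNA per cell cannot be told apart. The sum is set largely by a few abundant markers such as Slc34a1, the phosphate cotransporter (2841 to 9452 CPM), and single markers differed from it. Slc22a7, an organic anion transporter, was at 134 and 121 CPM in control replicates 8 and 9, at 10.8 CPM in control replicate 2 and between 40.7 and 71.4 CPM in the diabetic libraries. As for Sugct, 5 of 13 proximal tubule markers (Lrp2, Slc5a12, Slc27a2, Slc7a13 and Slc22a7) were lower in control replicate 2 and all 4 diabetic libraries than in control replicates 8 and 9, as were 20.3% of all genes. Against control replicates 8 and 9, 12 of 13 markers had a negative log2 fold change in each diabetic group, with medians of -0.53 and -0.55. With all 3 controls, 8 and 7 of 13 were negative, with medians of -0.13 and -0.07.

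Per 1000 CPM of proximal tubule markers, Sugct was at 2.70, 5.28 and 6.25 in control replicates 2, 8 and 9, at 2.82 and 1.72 in DM-22 mice and at 3.09 and 2.79 in DM+SGLT2i mice. The ratio of the mean of control replicates 8 and 9 to that of DM-22 mice was 2.54, and to that of DM+SGLT2i mice 1.96. These ratios rest on the libraries by which Sugct was chosen. For Dhtkd1 the ratios were 2.06 and 1.58. For Aass they were 1.24 and 1.10, and for Aadat 1.08 and 1.71. The ratios were below 1 for Gcdh (0.797 and 0.766) and Aldh7a1 (0.912 and 0.815). The fit was also scaled to these markers, an alternative added after the data had been seen. With all 3 controls, Dhtkd1 was then at -0.55 (log2, SE 0.52, limma adjusted p = 0.9996) in DM-22 and at -0.21 (SE 0.52) in DM+SGLT2i mice. Leaving out control replicate 2 moved these to -1.03 (SE 0.35, limma adjusted p = 0.233) and -0.69 (SE 0.35, adjusted p = 0.338). In that fit Aadat was at -0.18 (SE 0.36, limma adjusted p = 0.768) in DM-22 and -0.81 (SE 0.36, adjusted p = 0.297) in DM+SGLT2i mice. Aass was at -0.32 and -0.14 (SE 0.295 each), Gcdh at 0.31 and 0.38 and Aldh7a1 at 0.13 and 0.29. This scaling moved most genes up in that fit. The median over all genes tested was 0.44 in DM-22 and 0.45 in DM+SGLT2i mice, and 18.65% and 10.8% of genes were negative. Gcdh and Aldh7a1 were thus above 0 but below the median gene in both groups.

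Some markers of other kinds moved with the same libraries, and others did not. The 4 tubular injury markers (Havcr1, Lcn2, Vcam1 and Krt20) were each higher in control replicate 2 and the 4 diabetic libraries than in control replicates 8 and 9. Their sum was 12.5 and 15.3 CPM in control replicates 8 and 9, 148 CPM in control replicate 2, 72.2 and 17.6 CPM in DM-22 mice and 62.0 and 59.2 CPM in DM+SGLT2i mice. In the same way, 3 of 4 macrophage markers (Adgre1, C1qa and Cd68), 2 of 4 thick ascending limb markers (Cldn16 and Kcnj1), 2 of 4 collecting duct markers (Avpr2 and Slc4a1) and 1 of 4 endothelial markers (Cdh5) were higher in those 5 libraries than in control replicates 8 and 9, as were 14.4% of all genes. The rest of these lists did not show this. Csf1r, Umod, Slc12a1 and Aqp2 were each lower in DM-22 replicate 2 than in control replicates 8 and 9. The macrophage markers summed to 101 and 93.4 CPM in control replicates 8 and 9, to 237 CPM in control replicate 2 and to between 80.7 and 160 CPM in the diabetic libraries. The 4 thick ascending limb markers summed to 12920 CPM in DM-22 replicate 1 and to between 3294 and 7056 CPM in the others. None of the proximal tubule or injury markers was at 0 in any library. None of the distal convoluted tubule, podocyte, fibroblast, adipose tissue or urothelium markers showed either pattern. In DM+SGLT2i mice all 4 fibroblast markers had a positive log2 fold change against control replicates 8 and 9 (median 0.70). In that limma fit 1 of 4 passed the adjusted threshold, as did 1 of 4 macrophage markers, against 0.122% of all genes. With all 3 controls 0 of 4 passed in either list, as did 0% of all genes, and the fibroblast median was 0.42. In DM-22 mice 3 of 4 fibroblast markers were negative against control replicates 8 and 9 (median -0.19), and 4 of 4 against all 3 controls (median -0.62). All 4 were higher in DM+SGLT2i than in DM-22 mice (median 0.97). With all 7 libraries in the limma fit, 2 of them had an unadjusted p under 0.05 (2.25% of all genes were higher), and 3 without control replicate 2 (6.86%). The part of these markers in the levels of Sugct and its pathway was not tested.

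Among 16 further enzymes and subunits of lysine breakdown, all 16 tested, 0 passed the adjusted threshold in limma in any comparison. With all 3 controls, 0 of 16 had an unadjusted p under 0.05 in either comparison with controls. With control replicates 8 and 9, 2 were lower with an unadjusted p under 0.05 in the DM-22 group and 4 in DM+SGLT2i mice, where 14.8% and 9.14% of all genes were. Acat1, which splits acetoacetyl-CoA at the end of the pathway, stood at 852 and 914.5 CPM in control replicates 8 and 9, at 342 CPM in control replicate 2, at 415 and 523 CPM in DM-22 mice and at 404 and 439 CPM in DM+SGLT2i mice. Its log2 fold change with all 3 controls was -0.47 (SE 0.44, limma adjusted p = 0.816) in DM-22 and -0.61 (SE 0.44, adjusted p = 0.9997) in DM+SGLT2i mice. Without control replicate 2 it was -0.92 (SE 0.19, limma adjusted p = 0.0904) and -1.07 (SE 0.19, adjusted p = 0.0973). Hykk, the hydroxylysine kinase, was also highest in control replicates 8 and 9, at 445 and 436 CPM, and lowest in control replicate 2, at 151 CPM. Both DM+SGLT2i values of Hykk (224 and 204 CPM) lay between the DM-22 values (158 and 267 CPM), and its log2 fold changes were -0.58 and -0.53 (SE 0.50 each) with all 3 controls and -1.10 and -1.04 (SE 0.26 each, limma adjusted p = 0.0960 and 0.152) without control replicate 2. Over the 16 genes, 5 (Pipox, Phykpl, Hykk, Etfdh and Acat1) were lower in control replicate 2 and the 4 diabetic libraries than in control replicates 8 and 9, against 20.3% of all genes, and 2 (Ogdh and Etfb) were higher, against 14.4%. Etfb, a subunit of the electron carrier that takes electrons from Gcdh, was at 349 and 345 CPM in control replicates 8 and 9 and between 378 and 564 CPM in the others. Dlst, the second subunit of the Dhtkd1 complex, varied little, from 375 to 528 CPM. The median log2 fold change of the 16 was -0.05 in DM-22 and -0.09 in DM+SGLT2i mice with all 3 controls, beside 0.00 and -0.01 over all genes tested, and -0.11 and -0.16 with control replicates 8 and 9.

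In the tryptophan branch, which meets the lysine pathway at 2-oxoadipate, 8 of 11 genes could be tested. With all 3 controls, 0 of 8 had an unadjusted p under 0.05 in limma in DM-22 mice and 1 of 8 (Kynu, higher) in DM+SGLT2i mice, where 0.665% of all genes were higher. Against control replicates 8 and 9, 1 of 8 was lower at that level in DM-22 mice (14.8% of all genes). In DM+SGLT2i mice 1 of 8 was higher (8.73%). Kynu, the kynureninase of that branch, was at 32.1 and 37.6 CPM in DM+SGLT2i mice, above every other library (9.34 to 27.6 CPM), and 5.67% of all genes had both of these libraries above all 3 controls. Its log2 fold change was 1.11 (SE 0.42, limma adjusted p = 0.9997) with all 3 controls and 1.495 (SE 0.27, adjusted p = 0.101) without control replicate 2. Ido2, which opens the tryptophan ring, was at 15.9 and 16.4 CPM in DM+SGLT2i and at 9.74 and 6.498 CPM in DM-22 mice, and was the 1 of 8 that was higher at an unadjusted p under 0.05 between these groups (2.25% of all genes). Acmsd, which diverts tryptophan intermediates away from NAD, was lowest in DM-22 replicate 1 at 43.5 CPM and lay between 94.7 and 138 CPM in the others.

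Among 6 genes of lysine uptake, 1 of 6 (Slc7a2, lower) had an unadjusted p under 0.05 in DM-22 mice with all 3 controls, where 3.28% of all genes were lower, and 0 of 6 in DM+SGLT2i mice. Slc7a2, a cationic amino acid transporter, was at 3.11 and 4.65 CPM in DM-22 mice, at 9.59 to 10.8 CPM in the 3 controls and at 10.9 and 5.02 CPM in DM+SGLT2i mice. Its log2 fold change in DM-22 mice was -1.31 (SE 0.33, limma adjusted p = 0.804) with all 3 controls and -1.27 (SE 0.37, adjusted p = 0.123) without control replicate 2. Slc7a1, a transporter of the same family, went the other way. It was at 6.91 and 7.01 CPM in control replicates 8 and 9, at 19.8 CPM in control replicate 2, at 21.8 and 12.5 CPM in DM-22 mice and at 15.9 and 18.7 CPM in DM+SGLT2i mice. Its log2 fold changes were 0.71 and 0.77 (SE 0.48 each, limma adjusted p = 0.804 and 0.9997) with all 3 controls and 1.19 and 1.25 (SE 0.27 each, adjusted p = 0.0951 and 0.126) without control replicate 2.

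Among 7 genes of dicarboxylate transport, 0 of 7 had an unadjusted p under 0.05 against all 3 controls in either diabetic group. Against control replicates 8 and 9 the counts at that level were 0 of 7 in DM-22 mice and 1 of 7, higher, in DM+SGLT2i mice (8.73% of all genes). Slc13a2, the dicarboxylate transporter of the apical membrane, was the 1 of 7 that was higher in DM+SGLT2i than in DM-22 mice at that level, by 0.54 (log2, SE 0.17, limma adjusted p = 0.881), where 2.25% of all genes were higher. Slc7a2 was likewise the 1 of 6 uptake genes higher in that comparison, and 0 of 6 were when control replicate 2 was left out. None of the genes of these pathway lists passed the adjusted threshold in limma, with or without control replicate 2.

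**Figure D4:**
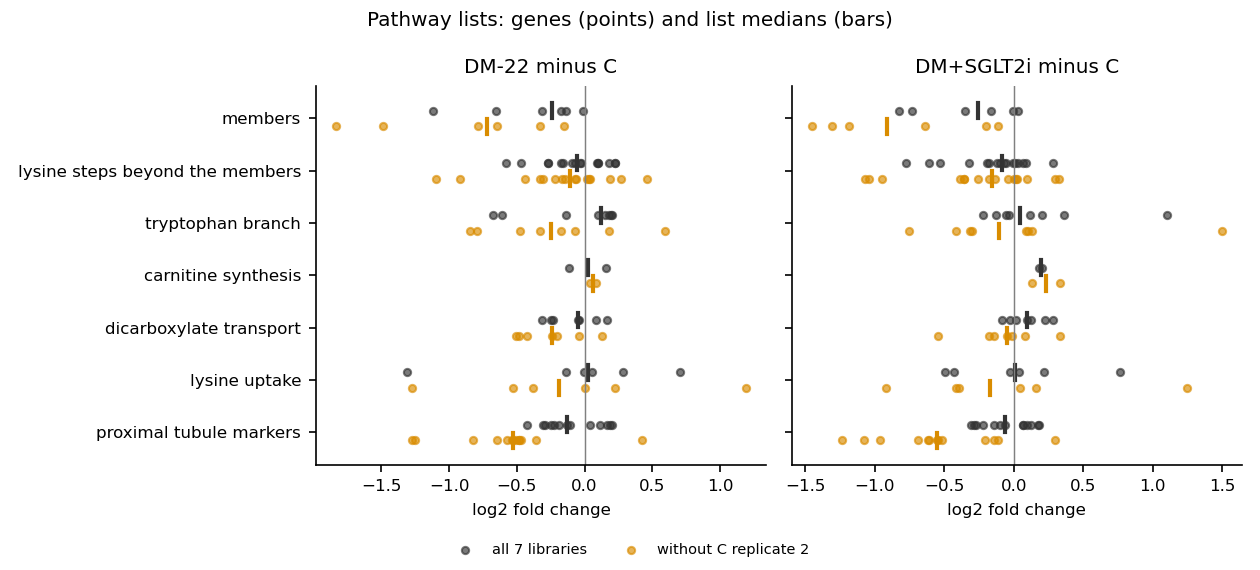
Log2 fold change (x axis) of each gene (point) in each list (y axis), with the list median (bar), for both comparisons with controls, with all 7 libraries (dark) and without control replicate 2 (orange). The median of the proximal tubule markers moved from -0.13 to -0.53 in DM-22 mice without control replicate 2, and that of the 16 further lysine genes from -0.05 to -0.11.

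Mplkip and Cdk13 are the nearest of the genes listed within 500 kb of Sugct. Mplkip starts 177 bases beyond the promoter window on the opposite strand and shares 362 bases with Sugct as annotated. Mplkip was between 8.63 and 12.6 CPM in all libraries, with log2 fold changes of 0.08 (SE 0.15) in DM-22 and -0.28 (SE 0.15) in DM+SGLT2i mice with all 3 controls, and 0.11 and -0.25 (SE 0.15 each) without control replicate 2. It is unknown whether the counting used strand, so reads in the shared bases could belong to either gene. Cdk13, a cyclin-dependent kinase gene 14.8 kb away, was at 62.1 and 55.9 CPM in control replicates 8 and 9, 35.1 CPM in control replicate 2 and 42.7 to 52.0 CPM in diabetic mice.

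The genes whose profile over the 7 libraries was most like that of Sugct were found by the root mean square difference of log2 values, each centred on its own mean. The nearest were Cfap69 (0.172), Gm10384 (0.173), Trps1 (0.215), Zfp810 (0.220) and Fam208a (0.220), beside a median of 0.847 over all genes tested. Gm10384 was close to the detection limit, at 0.0720 to 0.352 CPM outside control replicates 8 and 9, where it was at 1.52 and 1.35 CPM. Trps1, a GATA-type repressor, stood at 86.1 and 91.2 CPM in control replicates 8 and 9 and between 27.9 and 41.8 CPM elsewhere. Of the members, Dhtkd1 ranked 76 (0.334), Aass 718, Aadat 966, Aldh7a1 2776 and Gcdh 3538. The closest mirror images were Hist1h2ap (0.200), Hist1h2ao (0.202), Hist1h4h (0.235), Mgmt (0.253) and Krt7 (0.256). Hist1h2ap and Hist1h2ao are near-identical copies whose reads cannot be assigned with certainty. Krt7, a keratin of collecting duct and urothelium, was at 67.5 and 65.1 CPM in control replicates 8 and 9, at 248.8 CPM in control replicate 2 and between 131 and 200 CPM in diabetic mice.

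**Figure D5:**
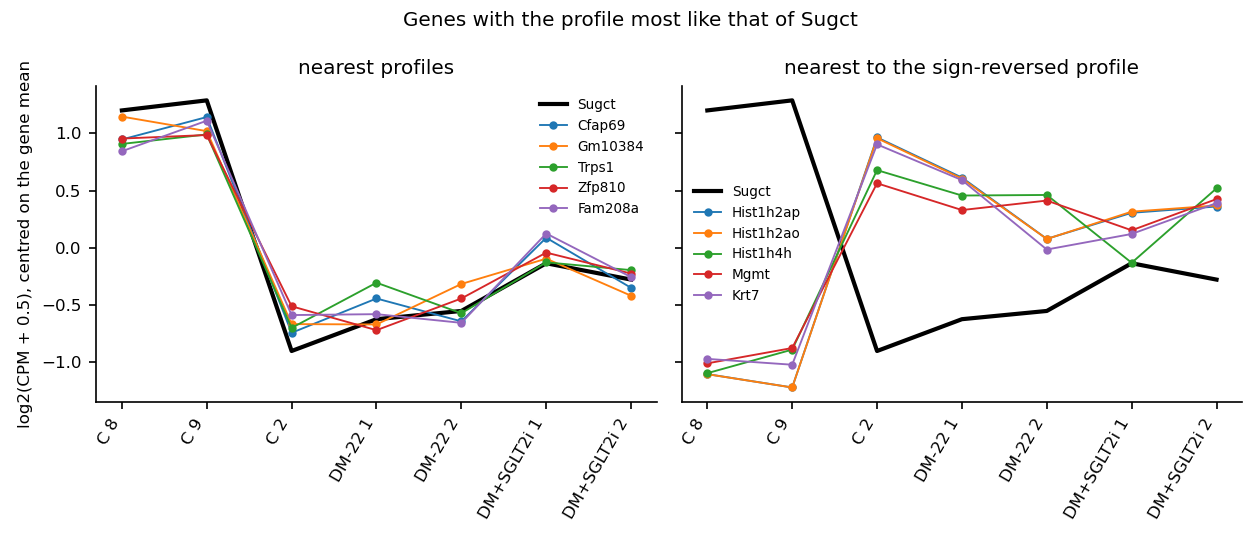
Centred log2 values (y axis) in the 7 libraries (x axis) for Sugct, the 5 genes most like it and the 5 most like its mirror image. Sugct and its nearest genes were highest in control replicates 8 and 9, and lines join points of a gene without implying an order.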

How the data were processed

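RNA was measured in 7 kidney libraries (polyA-selected, directional). The authors deposited log2 values: CPM normalised by TMM, to which about 2 reads per gene had been added first. The labels' processing notes name bcl2fastq, FastQC, Trim Galore, STAR, edgeR and mm10, without versions, and the read counter is not given in the sources used here. The design assumed CPM, with recovery of CPM from a logarithm if needed. CPM were recovered by undoing the logarithm and subtracting the linear value of the floor (-4.66). Recovered reads under 200 were whole within 0.05 for 100% of values.

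Tests used log2(CPM + 0.5) in limma 3.58.1 (lmFit, eBayes with trend; R 4.3.3) and covered genes reaching 1 CPM in 2 or more libraries. The 3 groups were fitted together, p-values were two-sided and adjusted by Benjamini-Hochberg over all 13976 genes, and the threshold was 0.05. The test was checked on simulated data. Tables were made with Python 3.11.15, pandas 2.3.3 and numpy 2.4.6. Positions are from GENCODE M21, which holds all 17537 identifiers. Members and lists were chosen with earlier results of these data known. By the rule for named genes, these were the members, genes of the pathway lists (not all printed), listed genes within 500 kb of Sugct and the 5 nearest and 5 mirror profiles. Alternatives were pseudocounts, filters, scalings, each library left out, a replicate block and marker scaling.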

Additional observations from a re-analysis of the deposited data

How the results depend on the processing

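In every alternative run, planned or added, 0 of the members tested (Sugct left out against controls) passed the adjusted threshold in the 3 comparisons, so no count of calls changed. Counting only settings that can move a fold change, and not the contrasts that chose Sugct, 62 of 64 values kept their direction under another pseudocount or scaling, and 52 of 74 with a library left out. Aldh7a1 in DM+SGLT2i minus C turned to 0.02 (log2) when scaled to library totals, and Gcdh in DM-22 minus C turned to 0.01 under the median of ratios. Scaling to proximal tubule markers was chosen after seeing the data: 27 of 32 such values kept their direction, Gcdh turned to 0.09 in DM-22 minus C and Aldh7a1 to 0.13 in DM+SGLT2i minus C. The medians over all genes were 0.10 and 0.11 in these comparisons. With control replicate 2 left out as well, Gcdh was at 0.31 and Aldh7a1 at 0.13 in DM-22 minus C, and Aldh7a1 at 0.29 in DM+SGLT2i minus C. The medians over all genes were then 0.44 and 0.45. The cause was not tested.

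Leaving out each library in turn gave these lowest and highest log2 fold changes. In DM-22 minus C, Sugct ranged from -1.83 to -0.74, Gcdh from -0.17 to 0.15, Aass from -0.94 to 0.31, Aldh7a1 from -0.58 to 0.31, Dhtkd1 from -1.49 to -0.22 and Aadat from -0.65 to 0.11. In DM+SGLT2i minus C, Sugct ranged from -1.45 to -0.36, Gcdh from -0.11 to 0.11, Aass from -0.63 to 0.08, Aldh7a1 from -0.20 to 0.10, Dhtkd1 from -1.18 to 0.09 and Aadat from -1.31 to -0.48. In DM+SGLT2i minus DM-22, Sugct ranged from 0.31 to 0.45, Gcdh from -0.12 to 0.20, Aass from -0.48 to 0.78, Aldh7a1 from -0.31 to 0.57, Dhtkd1 from -0.06 to 0.67 and Aadat from -1.0 to -0.31. Control replicate 2 set the lowest values of Sugct and Dhtkd1 against controls, and DM-22 replicate 1 the sign of Aass and Aldh7a1 in DM-22 minus C. A group left with 1 library was assumed to vary like the others.

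The numbers 1 and 2 in DM-22 and DM+SGLT2i mice are shared only as numbers, and the correlation of their deviations was -0.04. With the replicate number as a block, 0 members passed, and Sugct was at 0.38 (SE 0.16, limma adjusted p = 0.734). No paired analysis was possible against controls because they share only number 2.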

Other observations

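DM+SGLT2i replicate 1, in which Aadat was lowest at 106 CPM, differed from its partner in markers of tissue outside the tubule. Its summed adipose tissue markers were at 209 CPM, against 0.393 to 9.90 CPM in the other libraries. Its summed urothelium markers were at 88.2 CPM, against 3.72 CPM in DM+SGLT2i replicate 2 and 45.7 CPM in control replicate 2. Sugct differed little between the partners, at 54.3 and 49.1 CPM. The part of these markers in the level of Aadat was not tested.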
